A study of Kryptolebias marmoratus with 5 samples.

Results

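Gene expression was measured by RNA sequencing in pools of whole mangrove killifish (Kryptolebias marmoratus) embryos, and the data described here are those of both tail mutants set against wild type. These are 3 of the 5 libraries of the series: shorttail (stl), homozygous for the R109 mutation, balltail (btl), homozygous for the R228a mutation, and wild type (WT, the Hon9 strain). The remaining libraries came from phenotypically normal siblings of each mutant, called stl-sibling and btl-sibling. They entered the scaling and the choice of genes kept, and served as an alternative reference. Beside the ratios to WT they show where a difference was shared with the normal fish of the same line. Embryos of every group were reared in brackish water at 26 °C to about stage 17, with some at stages 16 and 18, and 20 to 25 embryos were pooled whole for each library. There was 1 library per group, so no difference could be set against a spread between replicates, no p-value is given, and intervals cover counting error only. Because whole embryos were pooled, fewer cells of a type and less RNA per cell cannot be told apart.

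The vertebrate tail grows from the tail bud, a mass of progenitors at the posterior end of the embryo. Its axial part forms the notochord, a rod of vacuolated cells within a collagen-rich sheath, and its paraxial part passes through the presomitic mesoderm to form somites, which give rise to skeletal muscle, vertebrae and dermis. noto encodes a homeobox transcription factor of the notochord lineage, and msgn1 encodes mesogenin 1, a bHLH transcription factor of the presomitic mesoderm that in zebrafish and mouse promotes the departure of progenitors from the tail bud. The study assigned stl to a missense mutation of noto and btl to a missense mutation of msgn1, so reads of either gene in its mutant are reads of a transcript that the mutation need not remove, and they do not check the labels by themselves.

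Library totals were 11487661 estimated reads in stl, 9147625 in btl and 11817725 in WT, and lay between 11849426 and 12220249 in the siblings. Reads were summed over the coding sequences of each gene and expressed as CPM (counts scaled to a common library size) after TMM scaling, and a gene was kept at a mean of 2 CPM or more over the 5 libraries, which left 15362 of 22090 genes. Every log2 ratio below is that of the mutant CPM to the WT CPM with 0.5 added to both, unless the sibling is named, and a gene was counted as higher or lower at a 2-fold difference. The exact 95% interval given with a ratio is that of the reads alone, with no 0.5 added.

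In stl, 234 genes were at least 2-fold lower than in WT (1.52% of those kept) and 185 were higher (1.2%). In btl, 394 genes were lower (2.56%) and 277 were higher (1.8%). A total of 50 genes were lower in both mutants (0.325%) and 29 were higher in both (0.189%), while 21 moved 2-fold in opposite directions (0.137%). Genes past 2-fold in stl with a log2 ratio within 0.5 of zero in btl were called stl only, and comprised 98 lower genes (0.638%) and 110 higher genes (0.716%). The corresponding btl only genes were 245 lower (1.59%) and 168 higher (1.09%). A further 269 genes (1.75%) passed 2-fold in one mutant and fell between these limits in the other. Both comparisons use the same WT library, so a gene that was unusual in WT alone enters as lower or higher in both mutants. For each class the sibling libraries were therefore read beside the ratios to WT, a division made after the values had been seen. A mutant's ratios to WT and to its sibling share the mutant library, so a gene unusual in that library alone differs in both.

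**Figure D1:**
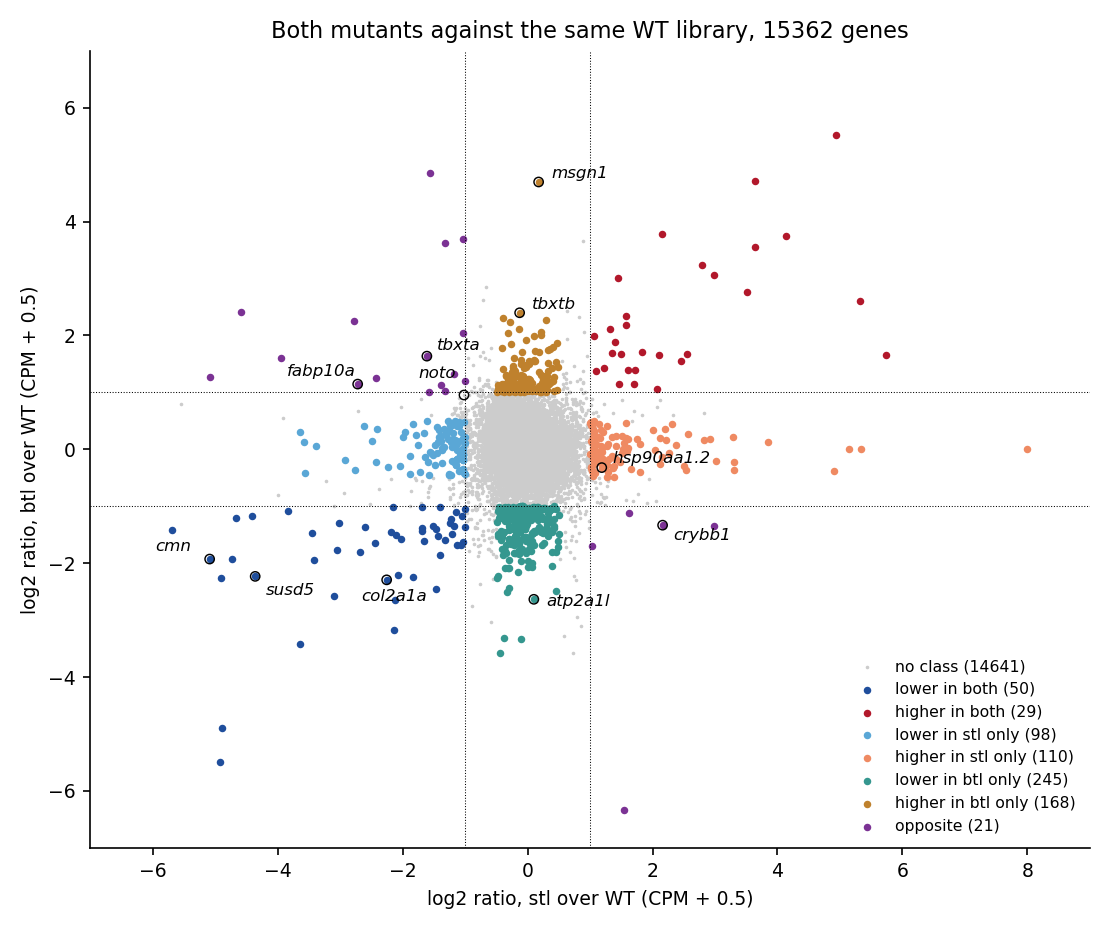
Log2 ratio of stl to WT (horizontal axis) against that of btl to WT (vertical axis) for the 15362 genes kept, 1 point per gene, coloured by class, with dotted lines at 2-fold. The 50 genes lower in both mutants lie at the lower left with cmn and col2a1a among them, msgn1 stands alone at the top with a btl ratio of 4.69, and noto lies on the edge of the opposite class.

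The mutated genes themselves behaved differently in each mutant. noto had 3.71 CPM in stl and 16.0 CPM in btl, against 7.56 in stl-sibling, 7.15 in btl-sibling and 8.03 in WT. Its log2 ratio was -1.02 in stl (interval -1.67 to -0.58) and 0.95 in btl (0.60 to 1.39), so it was below every normal library in stl and above every one in btl, but missed the 2-fold limit in btl. msgn1 had 10.8 CPM in stl and 259 CPM in btl, against 7.31, 12.4 and 9.50 CPM in stl-sibling, btl-sibling and WT. The log2 ratio of msgn1 was 4.69 in btl (4.49 to 5.06), the largest of the btl only class, and 0.18 in stl, with an interval of -0.19 to 0.57 that includes no difference. The msgn1 level in stl lay within the range of the 3 normal libraries. In the study's staining, at a later stage, noto and msgn1 were both suppressed in stl and expanded in btl. The reads of whole embryos, an unlike measure, thus did not show the reduction of msgn1 in stl.

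Among the 50 genes lower in both mutants, 27 were also at least 2-fold below the mutant's own sibling in each line, against 0.573% of all genes kept (88 genes). All 27 were below all 3 normal libraries, but their choice had left this open only for the sibling of the other line. The share over all genes kept, which were not chosen in this way, was 8.7%. The notochord list, described below, holds 10 of the 27. In 11 of the 50, both siblings were at least 2-fold below WT as well, and in the remaining 12 neither held. The medians of the 27 genes were -2.45 in stl and -1.58 in btl against WT, and -3.08 and -1.81 against the own sibling. Each gene was at least 2-fold lower in these comparisons by choice.

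Collagen genes of the notochord sheath were among these. col2a1a, which encodes a chain of type II collagen, had 48.9 CPM in stl and 47.7 CPM in btl, against 426, 346 and 235 CPM in stl-sibling, btl-sibling and WT. It was thus lowered alike in both mutants, with log2 ratios of -2.26 (-2.40 to -2.14) in stl and -2.29 (-2.46 to -2.15) in btl, and the direct ratio of stl to btl had an interval of -0.15 to 0.22. col9a1b, a type IX collagen gene that the study stained as a notochord marker, had 22.8 CPM in stl and 42.5 CPM in btl, against 196, 151 and 149 CPM in stl-sibling, btl-sibling and WT. Its ratios were -2.69 and -1.80, and the interval of stl to btl ran from -1.14 to -0.67. In the study's staining, at a later stage, the col9a1b signal was absent from the tail in stl but slightly expanded in btl. The type IX partners col9a2 and col9a3 and the type XI chain col11a2 had ratios of -2.18, -1.66 and -1.44 in stl and -1.46, -1.61 and -1.53 in btl. Of these, only col9a2 had an interval of stl to btl that excluded zero. The type V chain col5a3a was lower by a log2 ratio of -2.02 in stl and -1.58 in btl.

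A second set of matrix genes was nearly lost in stl and partly lost in btl. cmn, which encodes calymmin, a secreted protein of the zebrafish notochord, had 4.13 CPM in stl and 41.0 CPM in btl, against 250, 222 and 157 CPM in stl-sibling, btl-sibling and WT. The ratios were -5.09 (-5.69 to -4.84) in stl and -1.93 (-2.11 to -1.77) in btl. emilin3a, a glycoprotein of the notochord sheath in zebrafish, had 0.169 CPM in stl, from 2 reads, and 12.4 CPM in btl, against 28.9, 58.2 and 33.9 CPM in stl-sibling, btl-sibling and WT. Its interval was -10.7 to -5.79 in stl and -1.77 to -1.13 in btl. loxl5b, a lysyl oxidase-like enzyme of the kind that cross-links collagen, had 0.590 CPM in stl and 6.81 CPM in btl, against 16.8, 18.6 and 15.03 CPM in stl-sibling, btl-sibling and WT. epyc, the small proteoglycan epiphycan, had ratios of -3.42 in stl and -1.95 in btl. The products annotated as collagen alpha-1(IX) and alpha-1(II) chains under the symbols zmp:0000000760 and zgc:113232 showed the same order, with ratios of -4.91 and -4.73 in stl and -2.26 and -1.93 in btl. susd5, a sushi domain protein, had 0.844 CPM in stl and 5.38 CPM in btl, against 38.0, 31.8 and 27.1 CPM in stl-sibling, btl-sibling and WT.

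Over the 27 genes, 16 were lower in stl than in btl by an interval that excluded zero and 1, chadla, was lower in btl. chadla encodes a chondroadherin-like matrix protein and had 1.69 CPM in stl and 0.598 CPM in btl, against 8.79, 5.44 and 5.53 CPM in stl-sibling, btl-sibling and WT. The uncharacterized genes LOC108233214 and LOC108239880 followed the cmn pattern, at 0.759 and 0.928 CPM in stl and 13.5 and 13.03 CPM in btl, where WT had 31.7 and 30.1 CPM. matn4 (matrilin-4), loxl1 (another lysyl oxidase homologue), notum2 (a homologue of the secreted Wnt inhibitor Notum) and LOC108235140, a second gene annotated as EMILIN-3, completed the matrix and secreted members with ratios between -2.61 and -1.32 in stl and between -1.65 and -1.37 in btl. Reads of the closely related collagen and EMILIN genes may be shared between copies by the quantification, so the values of single copies are less certain than those of the family.

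The notochord list comprised 37 genes taken from known expression in zebrafish, but it was drawn up with earlier results of these data known. Its overlap with the classes is therefore not independent of these data. It held 10 of the 50 genes lower in both mutants, and all 10 were also 2-fold below the own sibling in each line. The list had 13 genes at least 2-fold lower in stl and 14 in btl, with none higher in stl and 2 higher in btl. Over all genes kept, 1.52% were lower in stl, 2.56% in btl and 0.325% in both, while 1.2% were higher in stl and 1.8% in btl. Its median log2 ratio was -0.40 in stl and -0.55 in btl, against -0.02 and 0.00 over all genes kept. The 2 genes higher in btl were the Brachyury genes tbxta and tbxtb, described below. The midline regulators foxa2, foxj1a and shha lay within 2-fold of WT. foxa2 had ratios of -0.34 in stl and -0.11 in btl. foxj1a had 0.08 and -0.05, and shha, the Sonic hedgehog gene made by notochord and floor plate, had -0.59 and -0.30.

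The somite muscle list of 75 genes had 3 lower in both mutants (0.325% of all genes kept were), casq2, cavin4a and mybphb. casq2, the sarcoplasmic reticulum calcium store calsequestrin-2, had 14.4 CPM in stl and 11.8 CPM in btl, against 49.995, 34.0 and 34.1 CPM in stl-sibling, btl-sibling and WT. musk, the receptor kinase of the neuromuscular junction, had ratios of -1.13 in stl and -1.68 in btl, and cavin4a, a caveolar protein of muscle, had -1.03 and -1.63. The gene annotated as PDZ and LIM domain protein 3 (LOC108230125) had -1.23 in each mutant. For these 4 genes the interval of stl to btl included zero. mybphb, a myosin-binding protein gene, had 6.33 CPM in stl and 5.74 CPM in btl, against 11.3 CPM in stl-sibling, 32.8 CPM in btl-sibling and 28.2 CPM in WT, so that the stl-sibling was low as well.

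**Figure D2:**
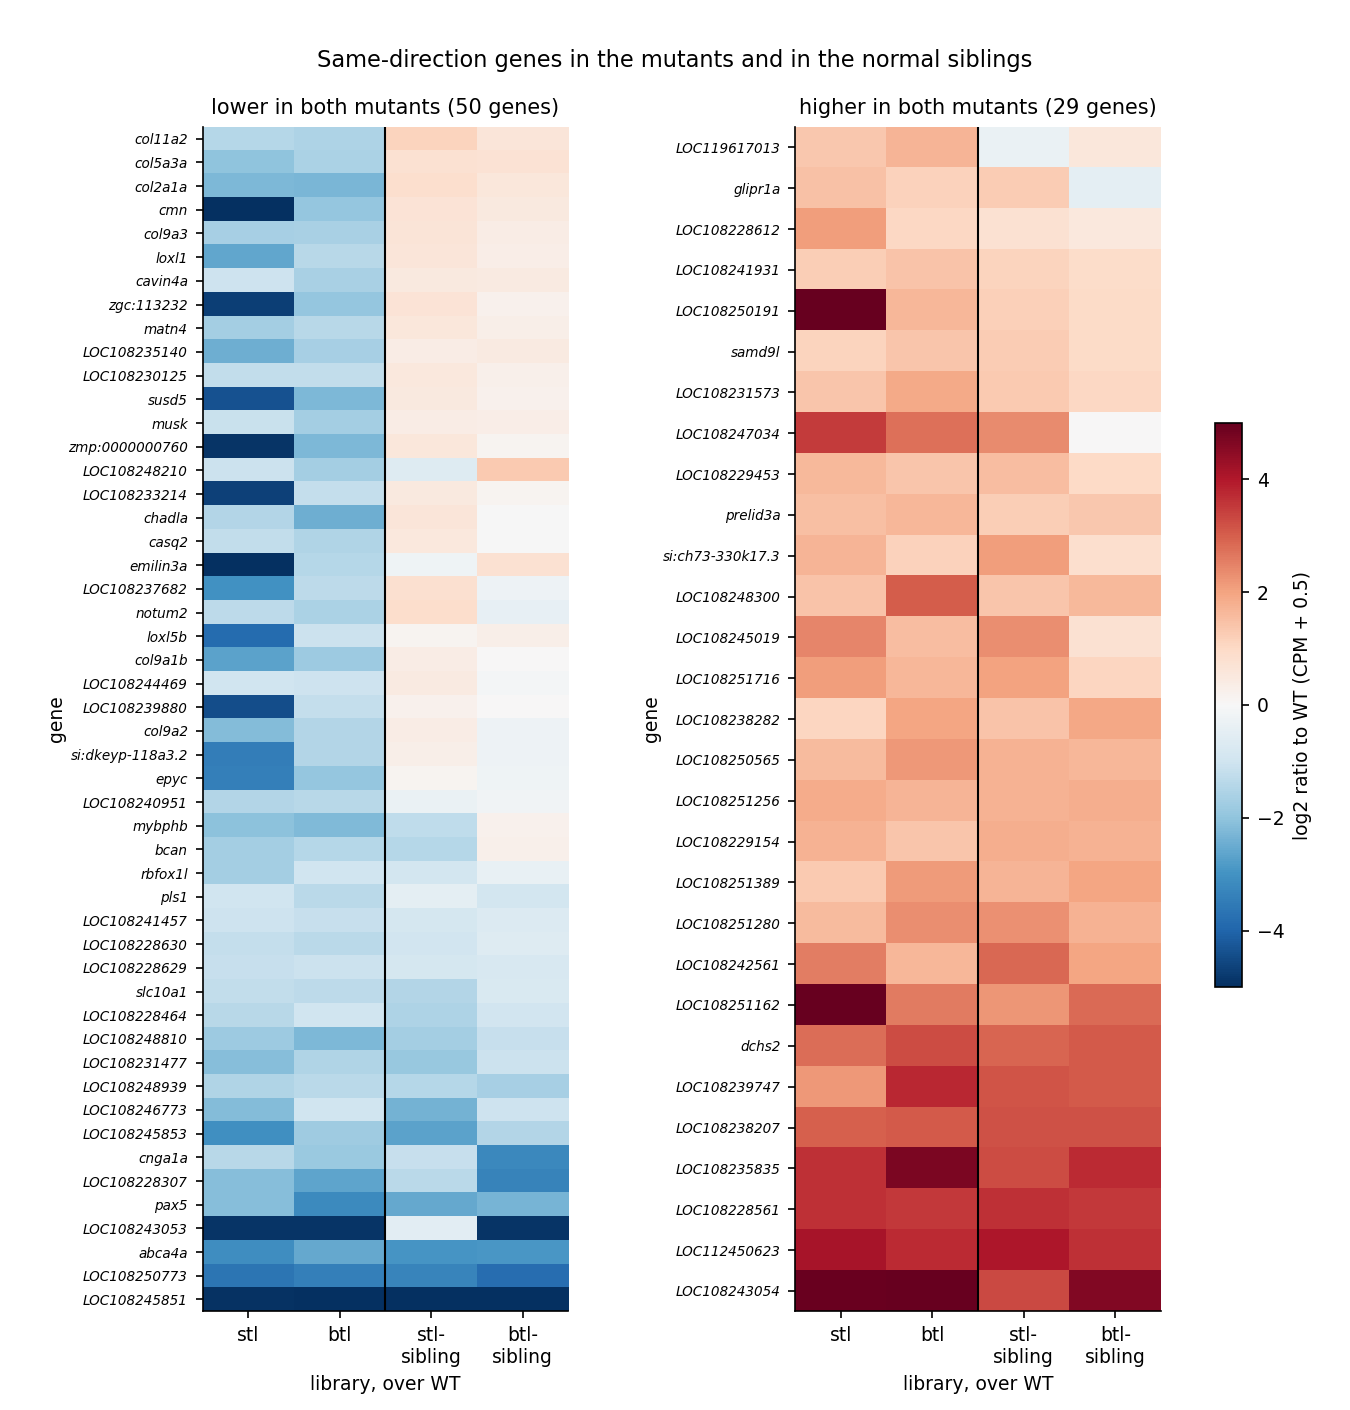
Log2 ratio to WT in stl, btl, stl-sibling and btl-sibling (columns) for the 50 genes lower in both mutants (left) and the 29 genes higher in both (right), 1 row per gene, ordered by the mean of the siblings, with values beyond 5 drawn as 5. The upper rows on the left, from col11a2 to LOC108240951, are low in the mutant columns alone, whereas the lowest rows on the left and most rows on the right have the same colour in the siblings.

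The 11 genes low in every library except WT included LOC108245851, whose btl ratio of -5.50 was the lowest of the class. It had 0.423 CPM in stl and 0.120 CPM in btl, against 0.165, 0.156 and 27.6 CPM in stl-sibling, btl-sibling and WT. It lies inside the annotated span of LOC108245853 on linkage group 1, which had 6.59 CPM in stl and 16.9 CPM in btl, where WT had 58.6 CPM. pax5, a transcription factor of the midbrain-hindbrain boundary, had 4.22 CPM in stl and 1.79 CPM in btl, against 3.04, 3.65 and 20.2 CPM in stl-sibling, btl-sibling and WT. abca4a, a retinal lipid transporter, had 0.675 and 1.195 CPM in stl and btl, and 9.59 CPM in WT. For these genes the difference from WT was thus about as large in the normal fish of both lines. Over all genes kept, both siblings were 2-fold below WT in 19 (0.124%) and above it in 33 (0.215%).

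Of the 12 genes in neither set, 3 lay close together on linkage group 3, of which LOC108228630 and LOC108241457 are annotated as complement C3 and LOC108228629 carries no product name in the files. LOC108241457 had 189 CPM in stl and 175 CPM in btl, against 211, 243 and 392.5 CPM in stl-sibling, btl-sibling and WT. WT was highest for all 3 genes, and each mutant lay less than 2-fold below its sibling, with log2 ratios to the sibling between -0.71 and -0.16.

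The class higher in both mutants had a different composition. Of its 29 genes, 24 carried a LOC symbol in place of a gene name (82.8%), against 26.2% of all genes kept. All 3 normal libraries lay below both mutants in 8 of the 29, against 6.32% of all genes kept. The choice of the class had already placed WT below both mutants, which does not hold for all genes kept. In 19 of the 29, both siblings were also at least 2-fold above WT, and 2 were 2-fold above the own sibling in each line (0.0716% of all genes kept). The class median was 1.84 in stl and 1.89 in btl against WT, whereas it was 0.07 and 0.50 against the own sibling. LOC112450623 had 38.5 CPM in stl and 29.4 CPM in btl, against 36.6, 27.9 and 1.73 CPM in stl-sibling, btl-sibling and WT. LOC108235835, annotated as a sodium/bile acid cotransporter, had 23.7 and 50.8 CPM in stl and btl, 18.2 and 25.6 CPM in stl-sibling and btl-sibling, and 1.45 CPM in WT. dchs2, annotated as protocadherin-23, had 15.5 and 21.4 CPM in stl and btl, 17.0 and 18.7 CPM in the siblings, and 1.81 CPM in WT. WT was lowest by far for each of these genes, and the mutants were within 2-fold of their siblings, although LOC108235835 was higher in btl than in btl-sibling by a log2 ratio of 0.98. The 2 genes above the own sibling in both lines were LOC119617013 and LOC108247034. LOC119617013, annotated as zinc finger protein 271-like, had 13.1 CPM in stl and 16.7 CPM in btl, against 3.71, 7.39 and 4.85 CPM in stl-sibling, btl-sibling and WT. LOC108247034, annotated as a piggyBac transposable element-derived protein, had 61 reads in stl and 24 in btl, against 25 in stl-sibling and 0 in btl-sibling and WT. Among the list genes, none was higher in both mutants, where 0.189% of all genes kept were.

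A pair of genes on linkage group 9 differed between libraries in opposite ways. LOC108243053 and LOC108243054, at 18126396 to 18127719 and 18109560 to 18110851 of the ASM164957v2 assembly, are both annotated as splicing factor-like protein 1. LOC108243053 had 0 reads in stl and in btl, against 119 in stl-sibling, 0 in btl-sibling and 166 in WT, which makes it at least 56.7-fold lower in stl and at least 40.02-fold lower in btl, taking 3 reads in the mutant library as the floor. LOC108243054 had 176 reads in stl and 188 in btl, against 54 in stl-sibling, 155 in btl-sibling and 0 in WT. Summed, the pair had 176 and 188 reads in stl and btl, and 173, 155 and 166 in stl-sibling, btl-sibling and WT, so that the total in CPM was 14.9 and 22.5 in the mutants and 14.2, 12 and 14.4 in the normal libraries. The pair thus appears in both same-direction classes while its sum was within 2-fold in every library.

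Among genes that differed in stl only, the stl-sibling shared much of the difference. Of the 98 lower genes, 42 were also 2-fold below WT in stl-sibling, where 0.82% of all genes were, and 12 were 2-fold below the own sibling, where 0.996% of all genes were. Of the 110 higher genes, 42 were 2-fold above WT in stl-sibling, where 0.892% of all genes were, and 10 were 2-fold above the own sibling, where 0.215% of all genes were. The highest ratios all belonged to genes whose level in stl was within 2-fold of that in stl-sibling. LOC108251661, annotated as a G2/M phase-specific E3 ubiquitin-protein ligase, had 1513 reads in stl and 0 in btl, against 1438 in stl-sibling and 0 in btl-sibling and WT, at least 493-fold higher in stl than in WT at a floor of 3 reads. Every one of the 12 lower genes and the 8 higher genes with the largest ratios in stl lay within a log2 ratio of 1 of the stl-sibling.

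The 12 genes lower in stl than in both WT and the stl-sibling included 3 myosin light chain genes. myl2a, a regulatory myosin light chain gene, had 2.278 CPM in stl and 5.62 CPM in btl, against 14.3, 8.94 and 7.83 CPM in stl-sibling, btl-sibling and WT. A second light chain gene, LOC108230875, annotated as myosin light chain 4-like, had 8.94 CPM in stl and 21.4 CPM in btl, against 38.3, 29.3 and 26.0 CPM in stl-sibling, btl-sibling and WT. myl13 had a ratio of -1.26 in stl and -0.45 in btl. lft1, which encodes a Lefty inhibitor of Nodal signalling, had 1.18 CPM in stl and 2.39 CPM in btl, against 4.27, 3.96 and 3.45 CPM in stl-sibling, btl-sibling and WT. The keratin gene krt1-c5 had 4.47 CPM in stl and 16.4 CPM in btl, and between 17.9 and 19.9 CPM in the normal libraries. LOC108240436, annotated as matrix-remodeling-associated protein 5, had ratios of -1.48 in stl and 0.07 in btl. myl2a, LOC108230875, myl13, krt1-c5 and LOC108240436, with others of the 12 genes, were picked for their values after these had been seen.

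The 10 genes higher in stl than in both WT and the stl-sibling were chaperone and lens genes with 1 exception, LOC108233556. hsp90aa1.2, a cytosolic Hsp90 gene, had 534 CPM in stl and 187 CPM in btl, against 168, 54.7 and 234 CPM in stl-sibling, btl-sibling and WT. hspa8b, an Hsp70 family gene, had 251 CPM in stl and 88.3 CPM in btl, against 94.7, 31.3 and 107 CPM in stl-sibling, btl-sibling and WT. A pair of genes annotated as heat shock protein 30-like on linkage group 14, LOC108232639 and LOC108232651, had 34.1 and 27.1 CPM in stl, 8.93 and 7.99 CPM in btl, and 6.44 and 7.46 CPM in WT. The btl-sibling was lowest for all 4 of these heat shock genes, so that btl stood above its own sibling by log2 ratios of 1.48 to 3.75 while it was within 0.5 of WT. The 39 genes of the heat shock and stress list had a median of 0.13 in stl, and of -0.05 in btl. The other Hsp90 gene, hsp90aa1.1, which is a gene of developing muscle in zebrafish, fell in the btl only class instead, at 77.9 CPM in stl and 32.4 CPM in btl, against 151, 93.5 and 86.9 CPM in stl-sibling, btl-sibling and WT. The study's staining of hsp90aa, at a later stage, was lost from the tail in both mutants.

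Several crystallins, the structural proteins of the lens, were higher in stl. The lens list of 11 genes had a median of 1.62 in stl and -0.52 in btl, with 8 genes at least 2-fold higher in stl, and 1 higher and 2 lower in btl. cryba4 had 19.5 CPM in stl and 2.39 CPM in btl, against 4.11, 3.58 and 3.02 CPM in stl-sibling, btl-sibling and WT. crybb1 had 38.8 CPM in stl and 2.99 CPM in btl, against 11.7, 8.55 and 8.29 CPM in stl-sibling, btl-sibling and WT, and so moved 2-fold in opposite directions. cryba1b did likewise, with ratios of 1.62 in stl and -1.12 in btl. Gamma-crystallin genes of the M2 and M3 type, whose copies may share reads, repeated the order, with LOC108238783 at 32.2 CPM in stl and 7.39 CPM in btl, where the normal libraries had 5.94 to 7.48 CPM. For the lens list the median ratio of stl to its own sibling was 1.31 and that of btl to its own sibling was -0.30.

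**Figure D3:**
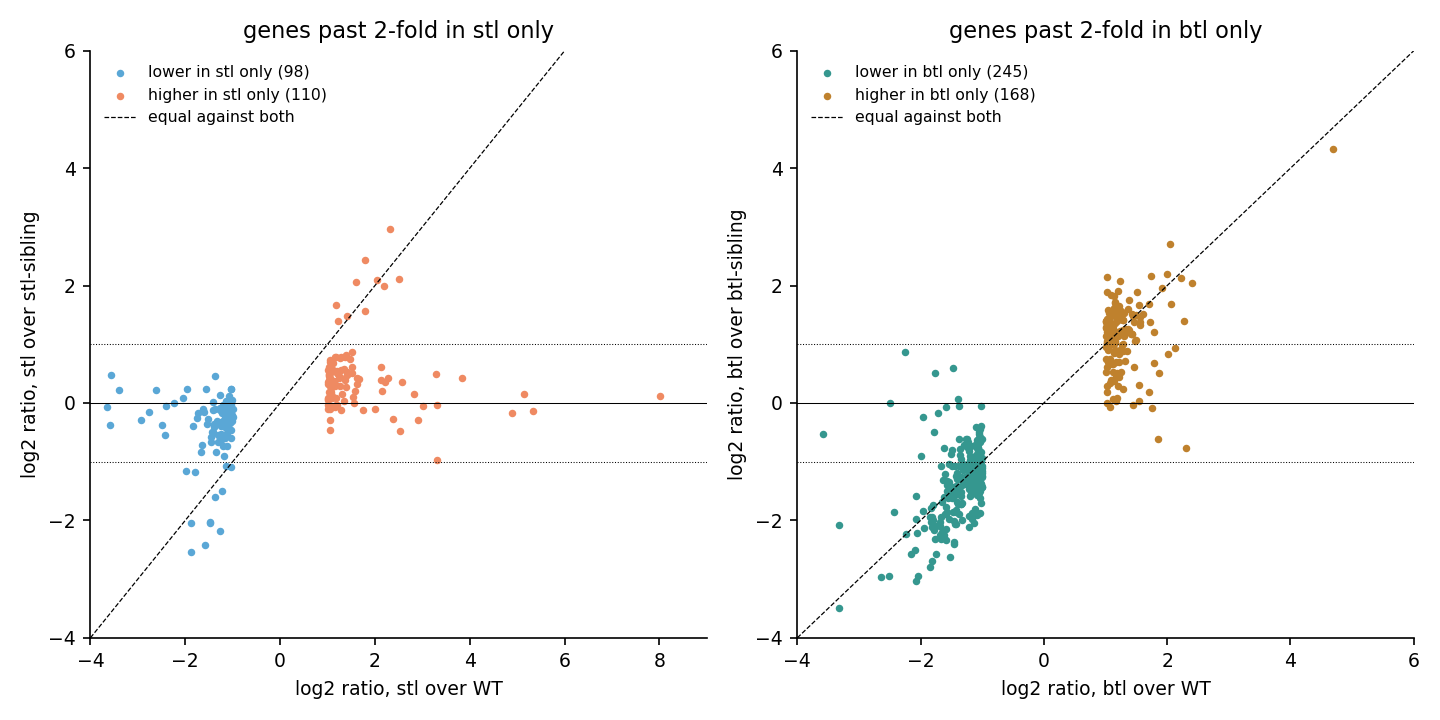
Log2 ratio of the mutant to WT (horizontal axis) against that of the mutant to its own sibling (vertical axis) for the genes past 2-fold in stl only (left, 98 lower and 110 higher) and in btl only (right, 245 lower and 168 higher), 1 point per gene. In the left panel most points lie near zero on the vertical axis, and in the right panel most lie near the dashed line of equal ratios.

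In btl only, most differences from WT held against the sibling too, but both ratios share the single btl library and are not independent. Of the 245 lower genes, 183 were at least 2-fold below btl-sibling, where 3.27% of all genes were, and 13 were also 2-fold lower in btl-sibling than in WT (0.697% of all genes). Of the 168 higher genes, 117 were at least 2-fold above btl-sibling, where 4.33% of all genes were, and 17 were also 2-fold higher in btl-sibling than in WT (0.664% of all genes). Median log2 ratios of the lower class were -1.25 against WT and -1.32 against btl-sibling, and those of the higher class were 1.16 and 1.22.

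Muscle formed the main named group among genes lower in btl only. Of 75 somite muscle genes, 21 were in this class, and all 21 were 2-fold below btl-sibling as well. Over all genes kept these shares were 1.59% and 3.27%. The list had 34 genes at least 2-fold lower in btl, against 6 lower and 3 higher in stl. Over all genes kept, 2.56% were lower in btl, and 1.52% were lower and 1.2% higher in stl. The median was -0.29 in stl, and -0.85 in btl. atp2a1l, a sarcoplasmic calcium pump gene, had 62.5 CPM in stl and 8.97 CPM in btl, against 126, 73.4 and 58.3 CPM in stl-sibling, btl-sibling and WT. myhb, a fast myosin heavy chain gene, had 60.2 CPM in stl and 14.0 CPM in btl, against 139, 118 and 60.3 CPM in stl-sibling, btl-sibling and WT. ckmb (muscle creatine kinase), actn3b (alpha-actinin of the Z disc), neb (nebulin of the thin filament), acta1b (skeletal actin) and ryr1b (the calcium release channel) had ratios of -2.06, -2.09, -1.53, -1.66 and -1.35 in btl. In stl the ratios of those 5 genes to WT lay between -0.29 and 0.33.

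Against its own sibling, stl was lower for muscle genes too. The stl-sibling had higher levels than WT for atp2a1l, myhb, actn3b, ckmb and acta1b. In stl, 9 of the 21 genes lay 2-fold or more below stl-sibling, where 0.996% of all genes kept did. Over the 75 genes the median ratio to the own sibling was -0.89 in stl and -0.999 in btl, with 69 below zero in stl and 67 in btl. The placing of at least the 9 genes in the btl only class therefore rests on WT as the reference.

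Some regulators of the somite and its muscle were lower in btl, though most on the lists were within 2-fold. Of 17 myogenic factors 2 were at least 2-fold lower in btl, and the paraxial mesoderm and segmentation list of 37 had 2 lower, tbx6 and tcf15, and 4 higher. Over all genes kept, 2.56% were lower in btl and 1.8% were higher. myf5, a myogenic determination factor, had 10.04 CPM in stl and 2.87 CPM in btl, against 14.4, 14.3 and 12.4 CPM in stl-sibling, btl-sibling and WT. tbx6, a T-box factor of the anterior presomitic mesoderm, had 16.0 CPM in stl and 5.62 CPM in btl, against 12.9, 18.3 and 12.1 CPM in stl-sibling, btl-sibling and WT, with an interval of -1.61 to -0.62 in btl. tcf15, a bHLH factor of somite epithelialization, had ratios of 0.30 in stl and -1.41 in btl. cdh15, the muscle cadherin, had 21.6 CPM in stl and 5.02 CPM in btl, against 39.2, 32.2 and 24.0 CPM in stl-sibling, btl-sibling and WT. chrnb1, an acetylcholine receptor subunit of the muscle endplate, had ratios of -0.11 in stl and -1.43 in btl, and stac3, which couples excitation to contraction, had 0.08 and -1.10. The median over the 17 myogenic factors was 0.00 in stl and -0.27 in btl.

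The fin fold, cartilage and tendon genes had a lower median in btl than in stl, and 8 of the 49 were in the class lower in btl only, 6 of them also 2-fold below btl-sibling. The list had a median of -0.67 in btl, where it was 0.30 in stl, with 17 genes at least 2-fold lower and 1 higher in btl, and 2 higher and none lower in stl. Over all genes kept, 2.56% were lower and 1.8% higher in btl, and 1.2% were higher and 1.52% lower in stl. The class lower in btl only held 1.59% of all genes kept, and 3.27% were 2-fold below btl-sibling. tnc (tenascin-C) had 107 CPM in stl and 30.2 CPM in btl, against 119, 111 and 81.8 CPM in stl-sibling, btl-sibling and WT. postnb, a periostin gene, had 43.8 CPM in stl and 12.2 CPM in btl, against 35.0, 18.996 and 32.6 CPM in stl-sibling, btl-sibling and WT. col5a1 and col5a2a, chains of type V collagen, had ratios of 0.50 and 0.39 in stl and -1.15 and -1.45 in btl. The type IV collagen genes of basement membranes, col4a1, col4a2 and col4a5, which were chosen after their values had been seen, had ratios of -1.14, -1.06 and -1.23 in btl and of 0.13, 0.20 and 0.24 in stl. thbs4b, a thrombospondin of tendon attachments, had 1057 reads in stl and 47 in btl, against 998, 1371 and 686 in stl-sibling, btl-sibling and WT, with ratios of 0.59 in stl and -3.29 in btl. It was left outside the btl only class because the stl ratio exceeded 0.5. LOC108234230, annotated as matrilin-2, had 9.78 CPM in stl and 0.837 CPM in btl, against 12.98, 14.5 and 12.9 CPM in stl-sibling, btl-sibling and WT. col2a1b, the second type II collagen gene, had ratios of -0.41 in stl and -1.53 in btl.

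Epidermal genes contributed some of the most highly counted members. ppl (periplakin), evpla and evplb (envoplakins), cross-linkers of the epidermal cell envelope, had 665, 427 and 460 CPM in stl and 306, 168 and 263 CPM in btl, where WT had 809, 542 and 545 CPM. krt5, a basal keratin gene, had 101718 reads in stl and 35248 in btl, against 101785 in WT, with ratios of -0.03 and -1.06. The epidermis list of 26 genes had a median of -0.41 in btl, where it was -0.25 in stl, with 4 genes 2-fold lower in btl (2.56% of all genes kept were). Of these 4 genes, 3 were also 2-fold below btl-sibling, namely ppl, evpla and evplb, whereas krt5 was not.

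**Figure D4:**
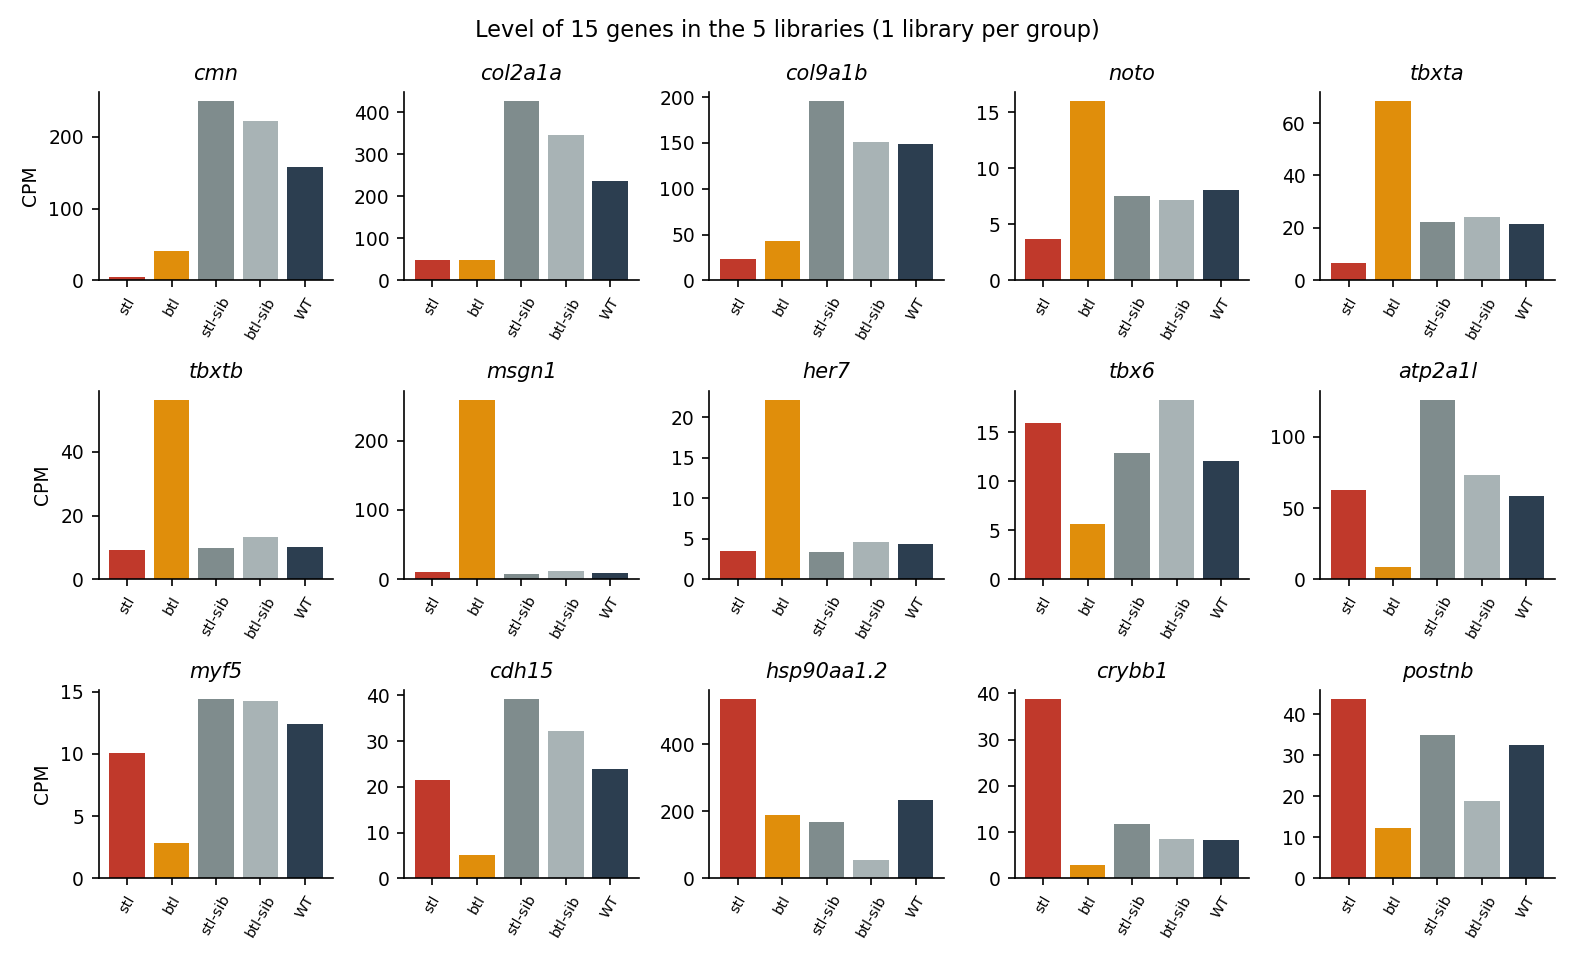
Level in CPM (vertical axis, each panel with its own scale from 0) of 15 genes in stl, btl, stl-sibling, btl-sibling and WT, 1 bar per library. cmn, col2a1a and col9a1b are low in both mutants, tbxta and noto are low in stl and high in btl, msgn1, tbxtb and her7 are high in btl alone, and atp2a1l, myf5 and cdh15 are low in btl.

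Genes higher in btl only included regulators of the tail bud and of the segmentation clock. tbxtb, one of the paired Brachyury genes, had 9.36 CPM in stl and 56.3 CPM in btl, against 9.69, 13.2 and 10.3 CPM in stl-sibling, btl-sibling and WT, with a btl ratio of 2.40 (2.16 to 2.76). her7, an oscillating Hairy-related repressor of the segmentation clock, had 3.46 CPM in stl and 22.1 CPM in btl, against 3.37, 4.66 and 4.32 CPM in stl-sibling, btl-sibling and WT. The related genes her11 and her12 had ratios of 1.56 and 1.28 in btl and 0.02 and 0.32 in stl. tbx16, a T-box gene of the posterior mesoderm, had 21.1 CPM in stl and 47.1 CPM in btl, against 20.0, 29.6 and 21.6 CPM in stl-sibling, btl-sibling and WT, and cdx4, a caudal homologue, had ratios of -0.25 in stl and 1.204 in btl. The ligands fgf10a, fgf3 and wnt3a had btl ratios of 2.04, 1.15 and 1.01, and stl ratios between -0.31 and 0.29. notum1b, which encodes a Wnt-inactivating carboxylesterase, had a btl ratio of 1.13 and a stl ratio of 0.01. Against btl-sibling, tbxtb, her7, her11, her12 and fgf10a were also past 2-fold in btl, with log2 ratios of 2.05, 2.13, 1.33, 1.41 and 2.705. tbx16, cdx4, fgf3, wnt3a and notum1b were not, with log2 ratios to btl-sibling of 0.66, 0.88, 0.91, 0.74 and 0.86.

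These genes did not stand for their whole lists. Of 32 tail bud genes, 7 were at least 2-fold higher in btl, with a list median of 0.17. With TPM this median was -0.16, where that of all genes was -0.30. The median in stl was -0.11 with 1 gene lower. Over all genes kept, 1.8% were at least 2-fold higher and 2.56% lower in btl, and 1.52% were lower in stl. The paraxial mesoderm and segmentation list of 37 genes had 4 higher and 2 lower in btl and none past 2-fold in stl, with medians of -0.14 and 0.21. Of 46 Wnt pathway genes, 2 were at least 2-fold higher in btl and 2 lower. In btl 33 of the 46 were below zero, with a median of -0.33. Of 25 FGF pathway genes, 2 were at least 2-fold higher in btl and none lower, with a median of -0.06. The study stained fgf8, at a later stage, and did not find it suppressed. The paired fgf8a and fgf8b genes of this tail bud ligand had ratios of -0.02 and -0.54 in btl and of -0.37 and -0.63 in stl, none past 2-fold. Its ntl and spt staining, taken here as tbxta and tbx16, was not significantly altered in either mutant. By reads tbxta had ratios of -1.61 in stl and 1.64 in btl, and tbx16 was higher in btl only. Its tbx6 staining was greatly reduced in btl, where the reads were lower too. Staining in the tail and reads of whole embryos are unlike measures. sox3, a gene of the neural tube, had 158 CPM in stl and 126 CPM in btl, against 150, 122 and 134 CPM in stl-sibling, btl-sibling and WT. Its staining was suppressed in the tail spinal cord of stl and not clearly affected in btl, so the reads did not show the reduction in stl.

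Hox genes of the posterior groups had the highest btl median of the 32 lists against WT. With btl-sibling as reference the posterior hox median was 0.85 and that of the ribosomal protein genes was higher, at 0.98, and with the mean of the 3 normal libraries they were 0.73 and 0.81. With TPM the posterior hox median in btl was 0.56, where that of all genes was -0.30. The 15 posterior hox genes had a median of 0.90 in btl and 0.06 in stl, whereas the 22 anterior hox genes had medians of 0.13 and 0.25. Of the posterior genes 4 were at least 2-fold higher in btl and none in stl, where 1.8% and 1.2% of all genes kept were. hoxd12a had 2.45 CPM in stl and 10.4 CPM in btl, against 1.89, 1.87 and 2.25 CPM in stl-sibling, btl-sibling and WT. hoxc13a and hoxc12a had btl ratios of 1.92 and 1.51, and all 3 genes were more than 2-fold above btl-sibling.

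The genes higher in btl only were short, with a median coding length of 672 nucleotides against 1479 over all genes kept. The 78 cytosolic ribosomal protein genes, a list added after the values had been seen, had a median of 0.68 in btl, with 1 of them below zero, and -0.16 in stl, with 72 below zero. With TPM these medians were 0.34 in btl and 0.01 in stl, where those of all genes were -0.30 and 0.13. rpl30, rps29 and rps21 had btl ratios of 1.21, 1.18 and 1.15. Over all genes the ratio of btl to WT fell with coding length and that of stl rose, with Spearman correlations across genes of -0.34 and 0.35. In the shortest of 20 length bins (114 to 450 nucleotides) the median ratios were -0.24 in stl and 0.52 in btl, and in the longest bin they were 0.28 and -0.12. Genes are not independent replicates, and these correlations are descriptions. The siblings followed the trend of stl, with correlations of 0.29 in stl-sibling and 0.42 in btl-sibling. All of these correlations share the WT library as reference, so WT lay between btl and the other libraries in this respect. Against the own sibling the correlations were 0.21 in stl and -0.49 in btl. After the median of each length bin was subtracted, 103 genes were higher in btl only, 80 of them among the 168, and 53 were lower in both mutants, with 48 of the 50 retained. The ribosomal protein medians with the length trend removed were 0.29 in btl and 0.04 in stl, against 0.68 and -0.16 without this step.

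**Figure D5:**
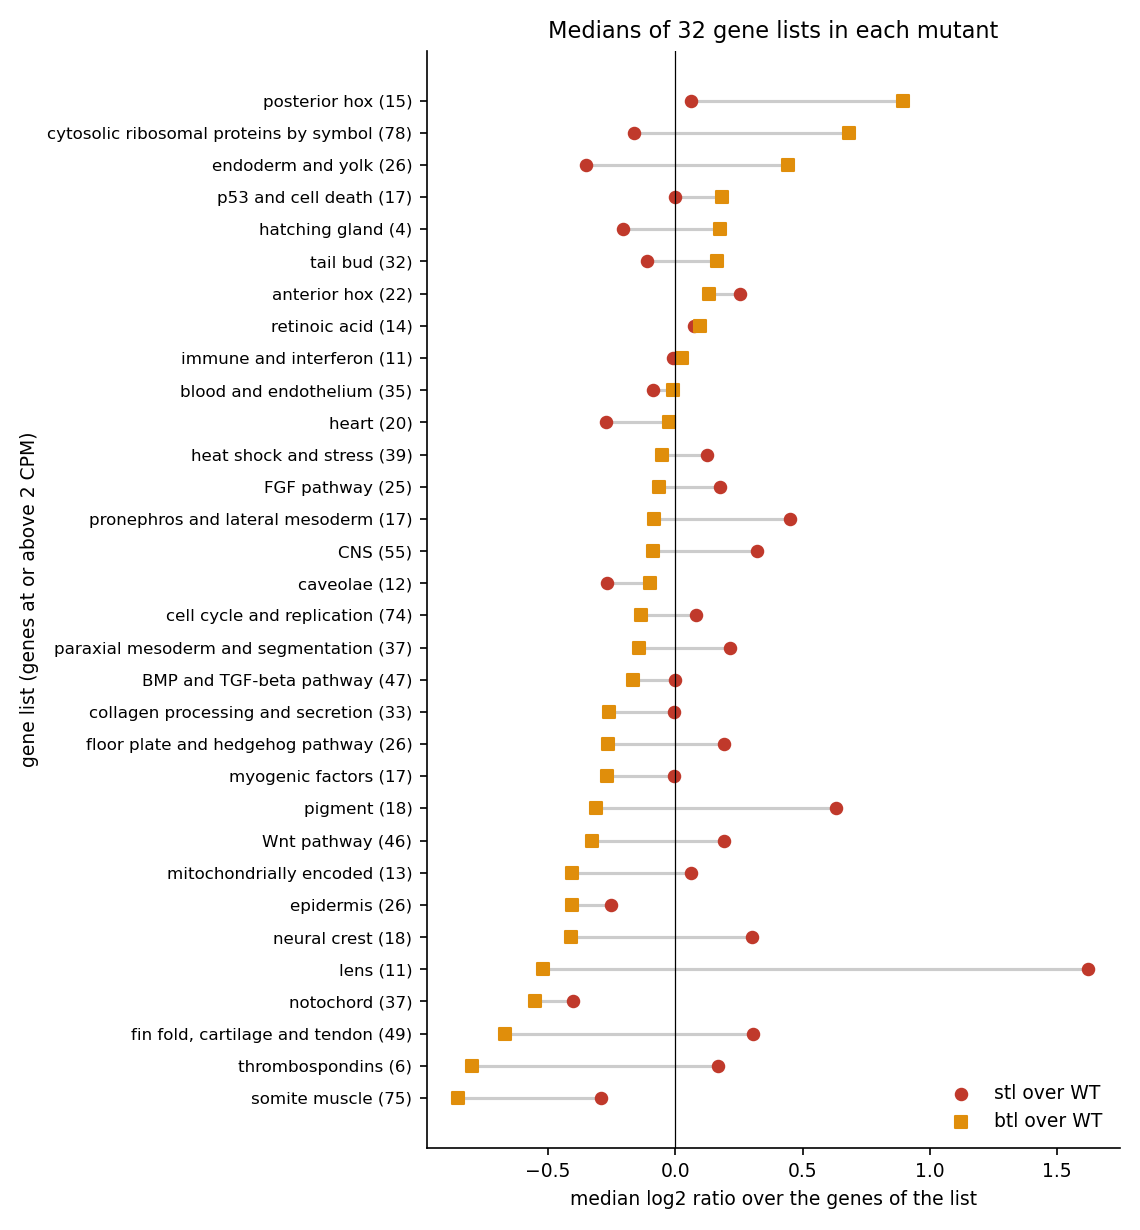
Median log2 ratio to WT over the genes of 32 lists, for stl (circles) and btl (squares), with the number of genes of each list in brackets and lists ordered by the btl median. The notochord and somite muscle lists are below zero in both mutants, posterior hox and ribosomal protein genes are high in btl, and the lens list is at 1.62 in stl and -0.52 in btl.

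The 21 genes that moved in opposite directions comprised 16 that were low in stl and high in btl, and 5 of the reverse kind. tbxta, the other Brachyury gene and a regulator of notochord and tail bud, had 6.75 CPM in stl and 68.4 CPM in btl, against 22.1, 24.0 and 21.7 CPM in stl-sibling, btl-sibling and WT. Its ratios were -1.61 (-2.07 to -1.32) in stl and 1.64 (1.44 to 1.88) in btl, and against the own sibling they were -1.64 and 1.49. In tbxta, si:dkey-21p1.3 and crybb1, each mutant was more than 2-fold from its own sibling in the same direction as from WT. si:dkey-21p1.3, whose product name is collagen alpha-1(I) chain, reached 0.422 CPM in stl and 28.1 CPM in btl, against 1.89, 2.88 and 1.81 CPM in stl-sibling, btl-sibling and WT.

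Many of the other opposite genes were near the sibling of the same line in stl, fewer in btl. LOC112451230, annotated as leishmanolysin-like peptidase 2, had 0.422 CPM in stl and 117 CPM in btl, against 0.657, 54.8 and 21.6 CPM in stl-sibling, btl-sibling and WT, so that btl was above its sibling by a log2 ratio of 1.09. LOC108228815 on linkage group 12 had 1395 reads in stl and 0 in btl, against 1517 in stl-sibling, 1 in btl-sibling and 462 in WT. In 15 of the 21 genes the stl level was within a log2 ratio of 0.5 of the stl-sibling, and in 9 the btl level was within 0.5 of the btl-sibling. fabp10a, the fatty acid binding protein of liver in fish, had 18.2 CPM in stl and 272 CPM in btl, against 20.0, 72.1 and 123 CPM in stl-sibling, btl-sibling and WT, and was thus as low in stl-sibling as in stl.

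The remaining 269 genes had no class because they passed 2-fold in only one mutant, 111 of them in stl and 158 in btl, with a ratio of intermediate size in the other. Of these, 95 were below WT in both mutants, 44 were above it in both, and 130 had opposite signs. The limits cut through a continuous range. pls1, the gene nearest to the limit within the class lower in both, had ratios of -1.002 in stl and -1.36 in btl, and pkn3, just outside it, had -0.9997 and -1.03. For the lower btl only class the nearest genes within and without were fam160a1a at -1.0003 and slc35a3b at -0.9997 in btl.

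Medians of some other cell types and processes were as follows. The median over 55 CNS genes was 0.32 in stl, and -0.09 in btl. In this list 1 gene was lower in both mutants (0.325% of all genes kept were), pax5. It was also 2-fold below WT in both siblings. The 18 pigment genes had medians of 0.63 and -0.31 and the 18 neural crest genes of 0.30 and -0.41, while against the own sibling the pigment medians were 0.07 and 0.04 and the neural crest medians -0.02 and -0.55. The CNS medians against the own sibling were 0.10 and -0.15. Endoderm and yolk genes, 26 in number, had a median of 0.44 in btl, where it was -0.35 in stl, with 0.56 in btl and -0.03 in stl against the own sibling. The btl median of this list was 0.11 with TPM, where that of all genes was -0.30, and 0.22 with the length trend removed. apoea, an apolipoprotein gene of the yolk syncytial layer, had 421 CPM in stl and 1043 CPM in btl, where WT had 508 CPM. The 74 cell cycle and replication genes and the 17 genes of the p53 response and cell death had no member past 2-fold in either mutant, with medians between -0.14 and 0.18. Over all genes kept, 1.52% were lower and 1.2% higher in stl, and 2.56% were lower and 1.8% higher in btl.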

How the data were processed

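Total RNA of 5 pools of embryos, 1 per group, was sequenced as paired ends by the authors, who trimmed reads with fastq-mcf and obtained transcript abundances with Salmon 1.5.0, the reference being the annotated coding regions of ASM164957v2. They deposited, per coding sequence and library, estimated counts and TPM. The authors also deposited joined tables of counts and RPKM, which were not used, and NOISeq comparisons with fold changes and probabilities, of which only the product names were read.

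Estimated counts were summed per gene through protein accessions (35 of 37181 coding sequences had no gene), rounded where reads are printed, and scaled with TMM factors of edgeR 4.0.16 (R 4.3.3). Ratios, classes and exact Clopper-Pearson 95% intervals of read ratios were computed in Python 3.11.15 (pandas 2.3.3, scipy 1.17.1) after the scripts had been tested on simulated data. With 1 library per group, totals between 9147625 and 12220249 set the precision.

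The genes and lists described were chosen with earlier results of these data known. Named are mainly the study's stained genes, the highest-ranked genes of each class, list members in a class and genes next to the 2-fold limit, besides those said to be chosen later. Some list members in no class, such as foxa2, foxj1a, shha and thbs4b, are named as well. Lists were matched by symbol. Entries by product name were left out, and 3 lists with them, because product names were at hand only for coding sequences in the deposited comparisons. From the notochord list 2 genes were taken off because they had been put there with earlier results of these data known. Alternatives covered the reference library, scaling (DESeq2 1.42.0 size factors, library size, TPM), pseudocount, filter, threshold, coding length and single coding sequences. No sequence is printed, as no genome was used here.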

Additional observations from a re-analysis of the deposited data

Results flagged for a closer look

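For 8 of the genes named above and 1 list, the stl and btl ratios to WT had opposite signs and were each at least 0.5 from zero. Only the mutated genes, the stained genes and the genes in a class were searched, so thbs4b, described above, was left out. Opposite signs with a smaller ratio, as in several other lists, are not given here. The differences could not be tested with 1 library of each mutant and were not tested. The log2 ratio of stl minus that of btl was -6.997 for LOC112451230, -4.955 for si:dkey-21p1.3, -3.865 for fabp10a, -3.249 for tbxta and -1.972 for noto, all lower in stl and higher in btl. It was 7.884 for LOC108228815, 3.494 for crybb1 and 2.743 for cryba1b, all higher in stl and lower in btl. For the lens list the median in stl minus that in btl was 2.144. Among these genes, tbxta, si:dkey-21p1.3 and crybb1 were also past 2-fold from the own sibling in each line, noto had log2 ratios to the own sibling of -0.94 in stl and 1.11 in btl, and LOC112451230, LOC108228815 and fabp10a were within 0.5 of the own sibling in stl.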

How the results depend on the processing

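Counts are given in the order lower in both mutants, higher in both, lower in stl only, higher in stl only, lower in btl only, higher in btl only and opposite, which were 50, 29, 98, 110, 245, 168 and 21. With the own sibling in place of WT they were 88, 11, 21, 10, 332, 611 and 4, and 27 of the 50 genes lower in both but 2 of the 29 higher in both were shared. With the mean of the 3 normal libraries as reference, 11 genes were higher in both, 34 lower and 29 higher in stl only, 366 higher in btl only and 47 opposite, while 50 were lower in both, 34 of them shared. With TPM, which moved the median of all genes to 0.13 in stl and -0.30 in btl, 61 were lower in stl only, 487 lower and 43 higher in btl only, and btl had 685 genes lower and 92 higher against 394 and 277. With library size alone, 108 were higher in btl only, and btl had 490 lower and 196 higher. With the length trend removed, 103 were higher in btl only. DESeq2 size factors and a filter over stl, btl and WT left every count within 1.5 times.

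A pseudocount of 2 gave 18 higher in both, 57 and 69 in stl only, 155 and 104 in btl only and 12 opposite, and a pseudocount of 0.1 gave 38 opposite. A minimum of 10 CPM gave 28, 15, 41, 29, 133, 75 and 10. With no filter, 97, 57, 165 and 215 genes were in the first 4 classes and 263 were higher in btl only. A 4-fold limit gave 10, 9, 12, 24, 16, 9 and 2. Single coding sequences gave 377, 501, 388, 373, 698, 419 and 207, which count each transcript model and not genes.

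Among the values of 113 named genes that were at least 2-fold from WT, 5 changed sign, all with the own sibling as reference. These were LOC108245851 at 0.47 and pax5 at 0.41 in stl, abca4a at 0.32 in btl, dchs2 at -0.13 in stl and LOC108228815 at -0.0829 in stl. Sign changes of smaller ratios, such as that of atp2a1l in stl, were not counted. Of 468 values of list medians under an alternative, 28 had another sign, all of medians between -0.31 and 0.30. With TPM the btl medians were -0.16 for tail bud, -0.18 for anterior hox and -0.13 for p53 and cell death genes. Each was above the -0.30 of all genes in btl under TPM. Against the own sibling the stl medians were -0.02 for paraxial mesoderm, -0.13 for anterior hox, -0.17 for posterior hox and -0.02 for neural crest genes, and the btl medians were 0.04 for pigment and 0.06 for heat shock genes. The stl medians of the fin fold and epidermis lists, 0.30 and -0.25 against WT, were 0.08 and -0.06 against the own sibling. No paired analysis was possible because each group has 1 library. Genes at the 2 CPM minimum rest on about 20 reads per library, so a 2-fold limit is close to counting error there.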
